A study of Mus musculus with 17 samples.

Results

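The Ighv genes are the variable (V) segments of the immunoglobulin heavy-chain locus, and their transcripts were followed in the diaphragm of tumor-free and tumor-bearing mice. Members were the rows named Ighv and a digit with a level of at least 1 TPM (transcripts per 1000000) in at least 3 of 17 mice, which held for 84 of 185 such rows in a table of 47643 gene symbols. The rule used the levels themselves, so presence above 1 TPM is a description and was not tested. The samples were diaphragms of C57BL/6J males aged 4 months. Control mice (n = 5) had no tumor and received mock intraperitoneal injections, and Control + rFibcd1 mice (n = 5) had no tumor and received injections of rFibcd1, a recombinant C-terminal part of the transmembrane protein Fibcd1 that resembles its released fragment. LLC mice (n = 3) had been given Lewis lung carcinoma cells under the skin of the flanks, bore the resulting tumors and received mock injections, and LLC + rFibcd1 mice (n = 4) carried the same tumors and received rFibcd1. The mock injection was the vehicle, albumin in saline. The tumors were transplanted into immune-competent mice of the strain they came from, and RNA came from a part of the diaphragm, freed of tendon, a muscle that borders the peritoneal cavity.

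A heavy-chain variable region is built in developing B cells, which join a V, a D and a J segment of the locus by recombination. Each B cell and its progeny therefore transcribe mainly the V segment they joined, and plasma cells transcribe it at a much higher level than resting B cells. Muscle fibers do not rearrange the locus, so Ighv transcripts in a muscle sample come from B lineage cells within or around it, and the shares of the segments reflect which B cells were there. In these bulk samples, fewer B lineage cells and less Ighv RNA per cell cannot be told apart.

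The 84 segments lay on the minus strand of chromosome 12 between 113588267 and 116000461 (GRCm38, GENCODE vM21), over 2.41 Mb and were each annotated as a V gene. None of the 68 rows annotated as V pseudogenes was a member, and 29 annotated V genes were not. Of the 101 rows left out, 56 were at 0 in every mouse and 45 were above 0 in at least 1. The members held between 95.5% and 99.9% of all Ighv TPM of a mouse. They belonged to 14 families of related sequence, of which the Ighv1 family, which fills the D-distal part of the locus, gave 44 members, Ighv5 gave 8, Ighv2 gave 6 and Ighv3 gave 5. A member reached 1 TPM in 3 to 15 mice (median 9), and no member did so in all 17. Ighv1-58 (third-highest level 1.02 TPM), Ighv1-11 (1.03 TPM) and Ighv3-5 (1.12 TPM) lay just inside the threshold. Ighv5-2 (0.904 TPM), the functional segment closest to the D segments, Ighv1-56 (0.798 TPM) and Ighv1-33 (0.665 TPM) lay just outside it. For 10 members, the threshold was reached only with the LLC mice, and 74 reached it without them.

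The coding sequence shows why most of these segments can be told apart by short reads, and where they cannot. Exon 2 encodes nearly all of the variable domain and ends at the point where D is joined. It was between 301 and 351 bases long in the members (median 305). The last 40 bases of exon 2 were searched on the coding strand for TANTNNTGT, where N is any base, which holds a codon starting with TA, such as those of tyrosine, a codon starting with T, and TGT, a codon of cysteine. In frame, these letters match the tyrosine and cysteine codons found before the junction, but reading frames were not checked. The motif was present in 82 of 84 members, in 23 of 27 annotated V genes that were not members and in 29 of 49 pseudogenes with a comparable transcript. The last 300 bases of exon 2 follow, from the GENCODE vM21 transcripts on GRCm38 and 5′ to 3′ on the minus strand, for 6 segments to which the results return, with the motif in capitals. Ighv1-53 (chr12:115158403-115158702) led more mice than any other segment, Ighv11-2 (chr12:114048241-114048540) led 2 mice, Ighv7-1 (chr12:113896408-113896707) led 1, Ighv1-82 (chr12:115952538-115952837) had the largest change with the tumor, Ighv1-54 (chr12:115193675-115193974) passed the test in both comparisons of LLC mice, and Ighv1-62-2 (chr12:115446409-115446708) has a near-identical copy.
Ighv1-53: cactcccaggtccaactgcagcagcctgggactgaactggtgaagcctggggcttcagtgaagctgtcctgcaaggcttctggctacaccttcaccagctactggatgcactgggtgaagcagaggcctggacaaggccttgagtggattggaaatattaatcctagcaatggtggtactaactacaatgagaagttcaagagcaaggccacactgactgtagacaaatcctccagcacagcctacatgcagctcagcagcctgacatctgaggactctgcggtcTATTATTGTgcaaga
Ighv11-2: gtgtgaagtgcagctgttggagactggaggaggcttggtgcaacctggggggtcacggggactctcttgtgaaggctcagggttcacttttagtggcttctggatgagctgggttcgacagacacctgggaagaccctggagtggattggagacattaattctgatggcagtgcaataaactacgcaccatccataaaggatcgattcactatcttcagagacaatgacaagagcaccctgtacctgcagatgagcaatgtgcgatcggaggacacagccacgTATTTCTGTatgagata
Ighv7-1: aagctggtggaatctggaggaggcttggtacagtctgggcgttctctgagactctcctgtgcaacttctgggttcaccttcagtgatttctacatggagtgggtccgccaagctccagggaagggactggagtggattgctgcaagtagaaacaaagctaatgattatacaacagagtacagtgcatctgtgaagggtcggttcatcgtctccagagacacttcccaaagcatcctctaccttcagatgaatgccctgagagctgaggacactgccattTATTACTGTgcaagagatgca
Ighv1-82: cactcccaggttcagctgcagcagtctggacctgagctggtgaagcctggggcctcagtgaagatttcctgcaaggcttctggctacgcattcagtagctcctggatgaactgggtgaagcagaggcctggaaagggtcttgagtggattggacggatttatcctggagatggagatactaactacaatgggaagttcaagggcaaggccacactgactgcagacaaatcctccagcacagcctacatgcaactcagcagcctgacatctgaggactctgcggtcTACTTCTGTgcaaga
Ighv1-54: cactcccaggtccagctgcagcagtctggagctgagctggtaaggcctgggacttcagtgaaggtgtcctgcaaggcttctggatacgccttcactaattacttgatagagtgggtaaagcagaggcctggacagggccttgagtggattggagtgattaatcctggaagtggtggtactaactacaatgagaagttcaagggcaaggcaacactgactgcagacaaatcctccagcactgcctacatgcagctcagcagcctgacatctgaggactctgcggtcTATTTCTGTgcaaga
Ighv1-62-2: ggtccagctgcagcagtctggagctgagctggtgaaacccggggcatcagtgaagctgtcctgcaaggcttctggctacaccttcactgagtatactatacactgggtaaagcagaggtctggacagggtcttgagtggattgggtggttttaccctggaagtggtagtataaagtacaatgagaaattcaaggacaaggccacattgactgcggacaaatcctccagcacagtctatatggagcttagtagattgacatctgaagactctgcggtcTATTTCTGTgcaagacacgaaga

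Among the 12 segments that led at least 1 mouse, 8 were of the Ighv1 family. Their exon 2 sequences were 78.7% to 96.4% identical within that family (28 pairs, with Ighv1-26 and Ighv1-22 the closest) and 53.4% to 68.5% identical between families (37 pairs). As a guide to how reads could be assigned, 58 of 84 members shared no stretch of 100 bases with the transcript of another Ighv gene, 26 shared at least 1, and 6 shared over 20% of such stretches. The latter were Ighv1-71 (96.9%), Ighv1-62-2 (90.3%), Ighv1-72 (42.8%, with the non-member Ighv1-62-3), Ighv1-52 and Ighv1-61 (29.4% each, with one another) and Ighv2-2 (24.1%). Exon 2 of Ighv1-62-2 and Ighv1-71 was identical. The coding part of exon 1, at chr12:115446805-115446850 for Ighv1-62-2 and chr12:115742602-115742647 for Ighv1-71, differed between them at 1 base, which is in capitals.
Ighv1-62-2: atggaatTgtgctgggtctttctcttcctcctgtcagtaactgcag
Ighv1-71: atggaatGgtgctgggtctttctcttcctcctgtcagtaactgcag
The levels of Ighv1-62-2 and Ighv1-71 are therefore uncertain one by one, although they did not follow each other. Ighv1-62-2 stood at 274 TPM in LLC + rFibcd1 replicate 2, where Ighv1-71 was at 1.33 TPM, and at 1.20 TPM in LLC replicate 3, where Ighv1-71 was at 24.98 TPM.

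The summed level of the 84 segments differed 1711-fold between the lowest and the highest mouse. It was 388, 1382, 435, 484 and 2.48 TPM in Control replicates 1 to 5 and 994.5, 181, 2.84, 24.8 and 598 TPM in Control + rFibcd1 replicates 1 to 5. It was 2336, 4234 and 2600 TPM in the LLC mice and 182.5, 1082, 2950 and 110 TPM in LLC + rFibcd1 replicates 1 to 4. Each LLC mouse lay above each Control mouse, whereas LLC + rFibcd1 mice overlapped both LLC and Control mice, and the groups without tumor overlapped widely. The log2 sum averaged 7.61 ± 3.60 in Control and 6.56 ± 3.49 in Control + rFibcd1 (n = 5 each), 11.53 ± 0.46 in LLC (n = 3) and 8.97 ± 2.21 in LLC + rFibcd1 (n = 4), with errors as SD. The log2 difference was 3.92 for LLC against Control, against a pooled SD of 2.95. With 1 mouse left out it ran from 2.35 (without Control replicate 5) to 4.63 (without Control replicate 2). The log2 difference was -2.55 for LLC + rFibcd1 against LLC (pooled SD 1.74), and -1.82 without LLC + rFibcd1 replicate 4.

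For the other comparisons, the log2 difference was -1.04 for Control + rFibcd1 against Control, and turned to 0.22 without Control + rFibcd1 replicate 3. It was 1.37 for LLC + rFibcd1 against Control and turned to -0.20 without Control replicate 5. Both were smaller than the pooled SD of 3.54 and 3.08. No p-value is given for these sums, since the segments had been chosen by their levels.

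**Figure D1:**
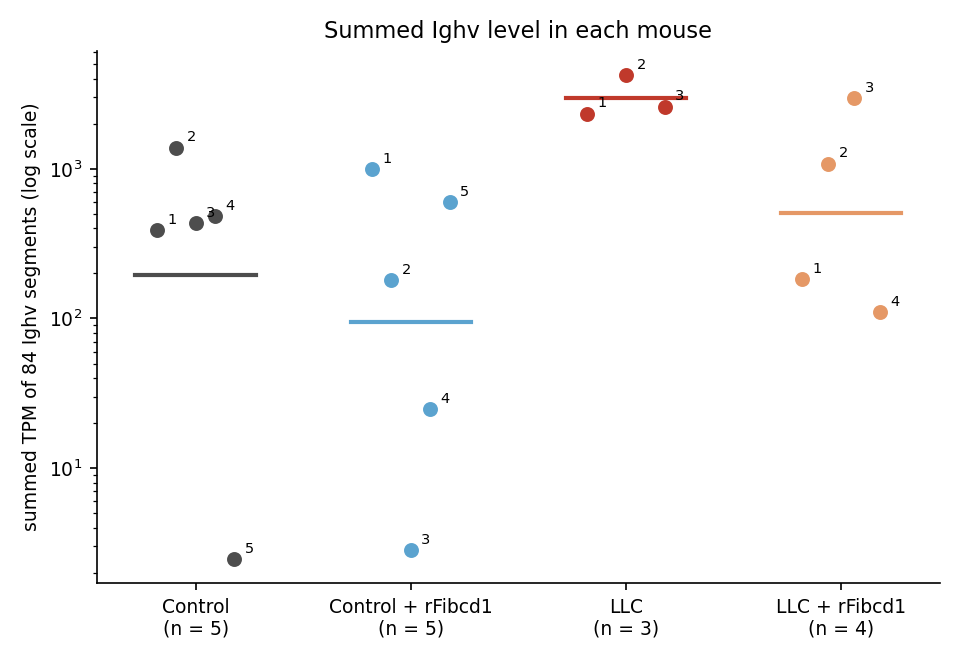
Summed TPM of the 84 Ighv segments in each mouse, on a log axis, by group. Points are mice numbered by replicate and lines are geometric means of the group. The 3 LLC mice sit between 2336 and 4234 TPM, and the other groups spread over 1 or more orders of magnitude.

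The steps between low TPM values gave the reads behind each level, and 757 of 757 low Ighv values lay within 0.02 of a whole read. The Ighv members held 21259, 38403 and 23611 reads in the LLC mice, but only 21 in Control replicate 5, 27 in Control + rFibcd1 replicate 3 and 237 in Control + rFibcd1 replicate 4. For a typical member, 1 read corresponded to 0.105 to 0.118 TPM. A count of 0 allows, with 3 reads, a level of up to 0.354 TPM in Control replicate 5 and 0.338 TPM in LLC replicate 1. The number of members above 0 was 83, 84 and 84 in the LLC mice, 63 to 83 in LLC + rFibcd1, 5 to 81 in Control and 15 to 80 in Control + rFibcd1. Members listed at 0 in the mice with few reads were below what this depth could detect, and shares in those mice are coarse.

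Genes of the B lineage moved with the summed Ighv level. Among genes outside the immunoglobulin loci, Jchain, which links IgM and IgA subunits in plasma cells, had the closest rank order to the Ighv sum (Spearman rho 0.99, n = 17 mice, across all groups), followed by St6gal1 (0.98), a sialyltransferase, and Tigit (0.98), a lymphocyte receptor. Cd6, Derl3, Gng2 and Tnfrsf13b tied behind them (0.97 each). Ighm, the constant region of IgM, reached 0.995, and the B cell receptor subunit gene Cd79a 0.94. These mice share groups and depth, so the coefficients are descriptions. A single member had a rho of 0.48 (Ighv5-12) to 0.96 (Ighv1-64) with the sum, with a median of 0.82.

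Cd79a stood at 28.7, 36.8, 7.51, 10.4 and 0.199 TPM in Control, at 55.4, 5.55, 1.21, 2.44 and 10.2 TPM in Control + rFibcd1, at 97.6, 90.6 and 110.4 TPM in LLC, and at 7.47, 52.6, 110.4 and 9.39 TPM in LLC + rFibcd1, each in replicate order. Of a list of 15 B cell markers, 14 were in the table, and their sum ranged from 6.21 to 136.7 TPM in Control, 7.02 to 190.6 TPM in Control + rFibcd1, 315.4 to 394.8 TPM in LLC and 27.2 to 378.5 TPM in LLC + rFibcd1. In LLC against Control, 14 of 14 tested B cell markers, 10 of 10 T cell markers, 5 of 8 plasma cell markers and 4 of 6 macrophage and neutrophil markers were higher at an adjusted p under 0.05 (limma), beside 29.7% of all genes tested, and none of these lists had a lower gene. The counts were 4 of 5 for lymphoid stroma, 3 of 5 for B-1 cells, 0 of 5 for mesothelium and 0 of 4 for white adipocytes. The median log2 change was 1.32 over the white adipocyte and 0.638 over the mesothelial markers, beside 1.26 over the plasma cell markers. Control replicate 5, with Cd79a at 0.199 TPM, had Cd9 of the B-1 list at 37.8 TPM, Bhlhe41 at 7.74 TPM and Ctla4 at 0.959 TPM. Zbtb32 was at 0.158 TPM and Cd5 at 0.04 TPM there. Part of the B-1 list was thus not limited to B cells. Skeletal muscle genes, which summed to between 41640 and 52680 TPM in each mouse, had 0 higher and 3 lower of 9. All these counts of calls were 0 without LLC replicate 3, with the replicate number as a block and with Dunn comparisons. Without LLC replicate 3, 14 B cell and 10 T cell markers were higher at an unadjusted p under 0.05, beside 27.9% of all genes. Over the fits that left out another mouse, 2 (without LLC replicate 1) to 14 B cell markers passed. The count was 4 without Control replicate 5, and 8 without Control replicate 3, Control replicate 4 or LLC replicate 2. Shares over all genes are not given for these fits, so this fall cannot be set apart from a fall over all genes. In LLC + rFibcd1 against LLC, no gene of these lists passed, beside 0.0601% of all genes higher and 0.0526% lower. No B cell marker was at 0 in an LLC mouse, and Cr2 was at 0 in Control replicate 5. The part that B cell number plays in the Ighv changes was not tested. The recombinase genes Rag1 and Rag2, which are active only in developing lymphocytes, did not exceed 0.0242 and 0.0122 TPM in any mouse.

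The heavy-chain constant genes, which are spliced to the joined V segment, gave the isotypes beside the segments. Summed Ighv TPM per summed constant TPM lay between 0.622 and 0.973 in 14 mice, and was 0.162 in Control replicate 5, 0.1004 in Control + rFibcd1 replicate 3 and 0.305 in Control + rFibcd1 replicate 4. These were the mice with the fewest Ighv reads. Ighm made up 84.7% to 96.0% of constant TPM in Control and 92.0% to 97.3% in Control + rFibcd1. It made up 93.6%, 86.6% and 78.3% in LLC replicates 1 to 3 and 68.4% to 97.1% in LLC + rFibcd1. IgG constant genes together held 2.45% to 3.90% in Control, 0.908% to 5.995% in Control + rFibcd1, 4.36% to 19.3% in LLC and 0.962% to 29.6% in LLC + rFibcd1 (median 3.36%), where replicate 3 had the highest share of any mouse. LLC lay above Control and overlapped the other groups. Of 7 constant genes tested, 4 were higher in LLC than in Control (adjusted p under 0.05, limma), beside 29.7% of all genes, Ighg2c among them, with a log2 change of 5.32 ± 1.54 (SE; adjusted p = 0.0188). None of the 7 passed without LLC replicate 3 (adjusted p = 0.0929 for Ighg2c), with the replicate block (0.0756) or with Dunn comparisons (0.149). Ighm, at 3.21 ± 1.46 (adjusted p = 0.0946), was not.

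The composition of the Ighv pool differed from mouse to mouse. A different segment led in most animals, and 12 segments led the 17 mice. In Control, the leading segment was Ighv7-1 in replicate 1 (12.8% of Ighv TPM), Ighv1-53 in replicate 2 (47.7%), Ighv1-26 in replicate 3 (42.8%), Ighv1-53 in replicate 4 (26.4%) and Ighv1-81 in replicate 5 (76.2%). In Control + rFibcd1, it was Ighv1-80 (22.7%), Ighv8-5 (14.9%), Ighv11-2 (18.3%), Ighv1-53 (70.5%) and Ighv1-22 (41.1%). In LLC, it was Ighv8-12 (18.7%), Ighv1-53 (12.9%) and Ighv1-55 (10.04%), and in LLC + rFibcd1 it was Ighv1-42 (18.0%), Ighv1-62-2 (25.3%), Ighv1-53 (17.8%) and Ighv11-2 (13.5%). A share over 40% occurred in 5 mice, 3 of them Control and 2 Control + rFibcd1, and in no tumor-bearing mouse. No test was made of this count.

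**Figure D2:**
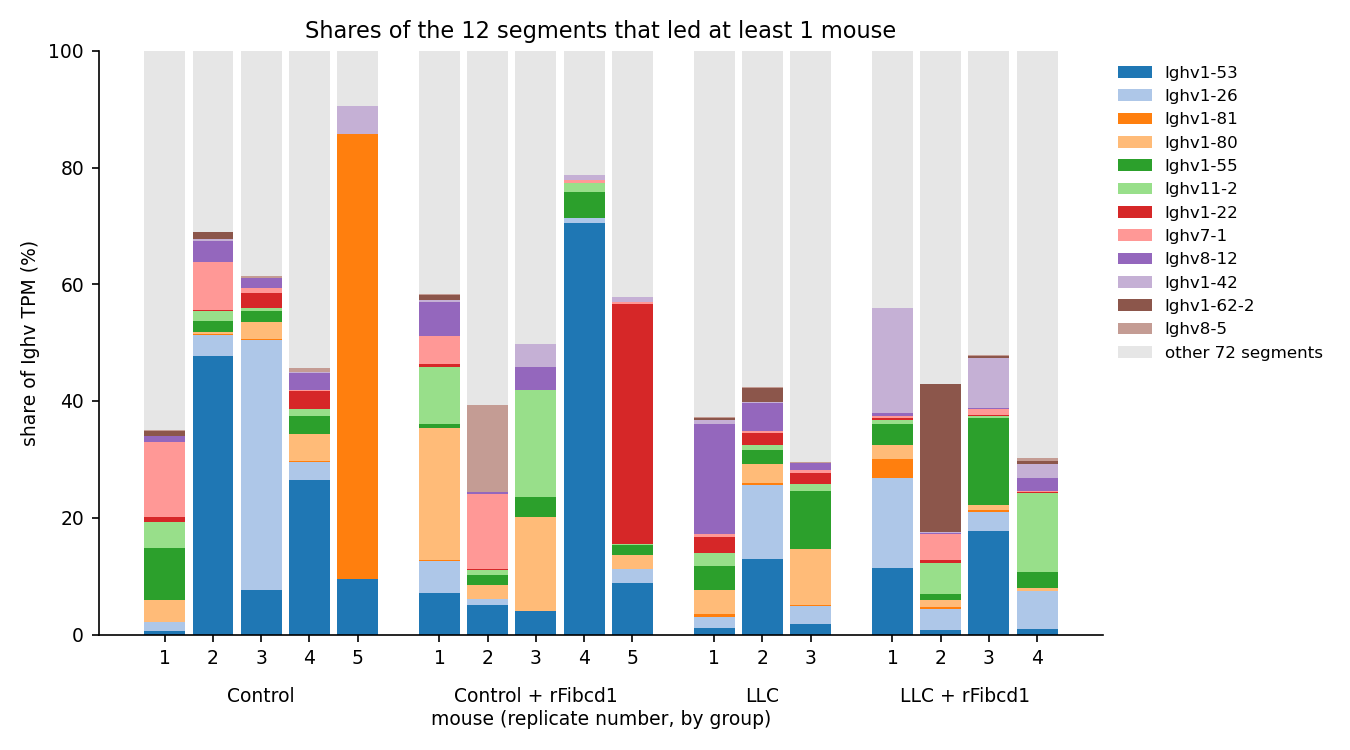
Shares of the summed Ighv TPM (percent, vertical axis) in each of 17 mice (horizontal axis, by group). Colors mark the 12 segments that led at least 1 mouse and gray the other members. Single colors fill over 40% of the bar in 5 tumor-free mice, and the largest share in an LLC mouse is 18.7%.

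As shares of reads with exact (Clopper-Pearson) 95% intervals, which cover counting error only, Ighv1-53 held 46.1% (45.3% to 47.0%) of 12652 reads in Control replicate 2 and 69.2% (62.9% to 75.0%) of 237 reads in Control + rFibcd1 replicate 4. Ighv1-81 held 16 of 21 reads in Control replicate 5, or 76.2% (52.8% to 91.8%). Ighv11-2 held 6 of 27 reads in Control + rFibcd1 replicate 3, or 22.2% (8.62% to 42.3%). Shares in the mice with 21 and 27 reads are thus loosely bounded, whereas the leading shares of Control replicates 2 and 4 differed beyond counting error.

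Ighv1-53 led 5 mice, at least 1 in each group, and had the highest mean share (13.8% over 17 mice). It was above 0 in 17 of 17, and its share ran from 0.642% to 70.5%. Its level was 2.49, 659.4, 33.3, 128 and 0.236 TPM in Control, 71.4, 9.17, 0.114, 17.5 and 53.2 TPM in Control + rFibcd1, 26.3, 544.2 and 44.6 TPM in LLC and 20.9, 8.19, 525.2 and 1.12 TPM in LLC + rFibcd1. The groups overlapped throughout, and the log2 change of 1.74 ± 2.09 (SE) for LLC against Control did not pass the test (limma, adjusted p = 0.528). Without LLC replicate 2 this change was 0.42.

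Ighv3-6, the other segment above 0 in 17 of 17 mice, led none and held 0.849% to 12.97% (mean 3.70%). It stood at 9.66, 30.25, 5.13, 10.06 and 0.118 TPM in Control and at 41.2, 205 and 22.1 TPM in LLC, which overlapped, and its log2 change of 2.95 ± 1.40 (SE; limma, adjusted p = 0.108) did not pass.

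Some leading segments were a large part of the pool only in the mouse they led. Ighv8-5 held 14.9% in Control + rFibcd1 replicate 2, where it stood at 26.9 TPM, and at most 0.596% in any other mouse. Ighv1-22 held 41.1% in Control + rFibcd1 replicate 5 (245.9 TPM) and at most 2.99% elsewhere. Ighv1-62-2 held 25.3% in LLC + rFibcd1 replicate 2 and at most 2.54% elsewhere. Ighv1-81 led only the mouse with 21 reads, at 1.89 TPM, and held at most 3.35% in the others. In TPM, the LLC mice (11.3, 15.8 and 6.00), LLC + rFibcd1 replicates 1 to 3 (6.11, 3.41 and 8.51) and Control replicate 2 (3.28) had more of it than that mouse. Other leading segments were shared more widely. Ighv11-2 exceeded 5% in 4 mice, and Ighv1-80, Ighv1-55 and Ighv7-1 did so in 3 mice each. Ighv1-26 made up 42.8% in Control replicate 3, 15.3% in LLC + rFibcd1 replicate 1 and 12.7% in LLC replicate 2. Over the 84 members, 27 exceeded 5% in at least 1 mouse and 19 exceeded 10%.

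Segments with a known use were examined by name. Ighv11-2, a segment typical of B-1 cells of the peritoneal cavity, many of whose antibodies bind phosphatidylcholine, stood at 17.4, 22.8, 1.99, 6.16 and 0 TPM in Control, 98.2, 1.70, 0.521, 0.406 and 1.32 TPM in Control + rFibcd1, 53.8, 36.9 and 29.8 TPM in LLC and 1.27, 57.8, 8.33 and 14.9 TPM in LLC + rFibcd1. Each LLC mouse was above each Control mouse, with a log2 change of 2.68 ± 1.37 (SE; limma, adjusted p = 0.131), which passed only without Control + rFibcd1 replicate 1 among 17 fits that left out a mouse (adjusted p = 0.0474). Its share reached 13.5% in LLC + rFibcd1 replicate 4 and 18.3% in Control + rFibcd1 replicate 3, and was 0.872% to 2.30% in the LLC mice. Ighv12-3, the other segment of this kind, was at 0.680 to 4.17 TPM in the first 4 Control mice, 0 TPM in the fifth and 10.05 to 21.8 TPM in LLC, and rose by 2.55 ± 0.82 (adjusted p = 0.0285). This call was lost without Control replicate 4 or 5, or LLC replicate 1 or 3 (adjusted p up to 0.1055). It was never above 1.78% of the pool.

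Ighv7-1, used in antibodies against phosphorylcholine, was at 49.9 and 112 TPM in Control replicates 1 and 2 but at 3.22, 0.772 and 0 TPM in the others, and at 12.7, 13.4 and 16.6 TPM in LLC. Its log2 change of 0.84 ± 1.77 did not pass (adjusted p = 0.729), and was 0.07 without Control replicate 5. Ighv1-72, used in C57BL/6 antibodies against the hapten NP, was at 0 to 19.2 TPM in Control and at 27.8, 45.2 and 55.9 TPM in LLC, which did not overlap. Its change was 3.03 ± 1.38 (adjusted p = 0.0944, and 0.0307 without LLC + rFibcd1 replicate 3), and it shared 42.8% of its stretches of 100 bases with Ighv1-62-3. In LLC + rFibcd1 it was at 1.19 to 3.73 TPM in 3 mice and at 232 TPM in replicate 3.

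By family, the 44 Ighv1 members held 69.5% ± 19.7 of Ighv TPM in Control and 58.3% ± 21.0 in Control + rFibcd1 (n = 5 each), 64.9% ± 7.17 in LLC (n = 3) and 60.4% ± 11.8 in LLC + rFibcd1 (n = 4), with errors as SD, and the ranges of the groups overlapped. They were 52.4% of the members. The Ighv8 family reached 20.7% in LLC replicate 1 and 15.4% in a Control + rFibcd1 mouse, and the Ighv6 family 19.2% in LLC + rFibcd1 replicate 2, where Ighv6-3 stood at 201.5 TPM. The D-distal 42 members held 43.9% to 90.5% in Control, 35.7% to 80.2% in Control + rFibcd1, 63.6% to 71.6% in LLC and 48.7% to 73.0% in LLC + rFibcd1. These ranges overlapped for each pair of groups.

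Diversity was measured as the effective number of segments, the exponential of the Shannon entropy of the TPM shares, which equals the number of equally abundant segments with that entropy. It was 35.0, 11.7, 13.5, 21.5 and 2.37 in Control and 24.5, 22.1, 11.7, 4.48 and 12.5 in Control + rFibcd1. It was 25.8, 31.9 and 37.5 in LLC and 21.9, 19.3, 23.0 and 29.7 in LLC + rFibcd1. Tumor-bearing mice did not fall below 19.3, and tumor-free mice ranged from 2.37 to 35.0. It averaged 16.8 ± 12.2 in Control and 15.1 ± 8.18 in Control + rFibcd1 (n = 5 each), 31.7 ± 5.85 in LLC (n = 3) and 23.5 ± 4.45 in LLC + rFibcd1 (n = 4), with errors as SD. The difference between LLC and Control was 14.9 segments (pooled SD 10.5), and the groups overlapped through Control replicate 1. It was -8.23 between LLC + rFibcd1 and LLC (pooled SD 5.05), where the ranges overlapped through LLC replicate 1 and LLC + rFibcd1 replicate 4.

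The number of reads behind a pool limits how many segments can be seen, so the segments expected in a draw of equal size were also computed. In 200 reads, 44.8, 46.8 and 47.9 segments were expected in the LLC mice, 38.4, 38.7, 39.9 and 43.7 in the LLC + rFibcd1 mice, 46.8, 34.4, 35.1 and 38.03 in Control replicates 1 to 4 and 42.2, 35.5, 26.4 and 33.4 in Control + rFibcd1 replicates 1, 2, 4 and 5. Control replicate 5 and Control + rFibcd1 replicate 3 had too few reads for this. In this draw each LLC mouse was above each LLC + rFibcd1 mouse, and Control replicate 1 stood among the LLC mice. In 20 reads, the expected number was 12.5 to 14.4 in LLC, 11.0 to 13.2 in LLC + rFibcd1, 4.86 to 14.1 in Control and 6.35 to 12.2 in Control + rFibcd1. In this smaller draw LLC + rFibcd1 replicate 4 (13.2) was above LLC replicate 1 (12.5), so these groups overlapped. No p-value is given for diversity, which was computed over the chosen members.

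**Figure D3:**
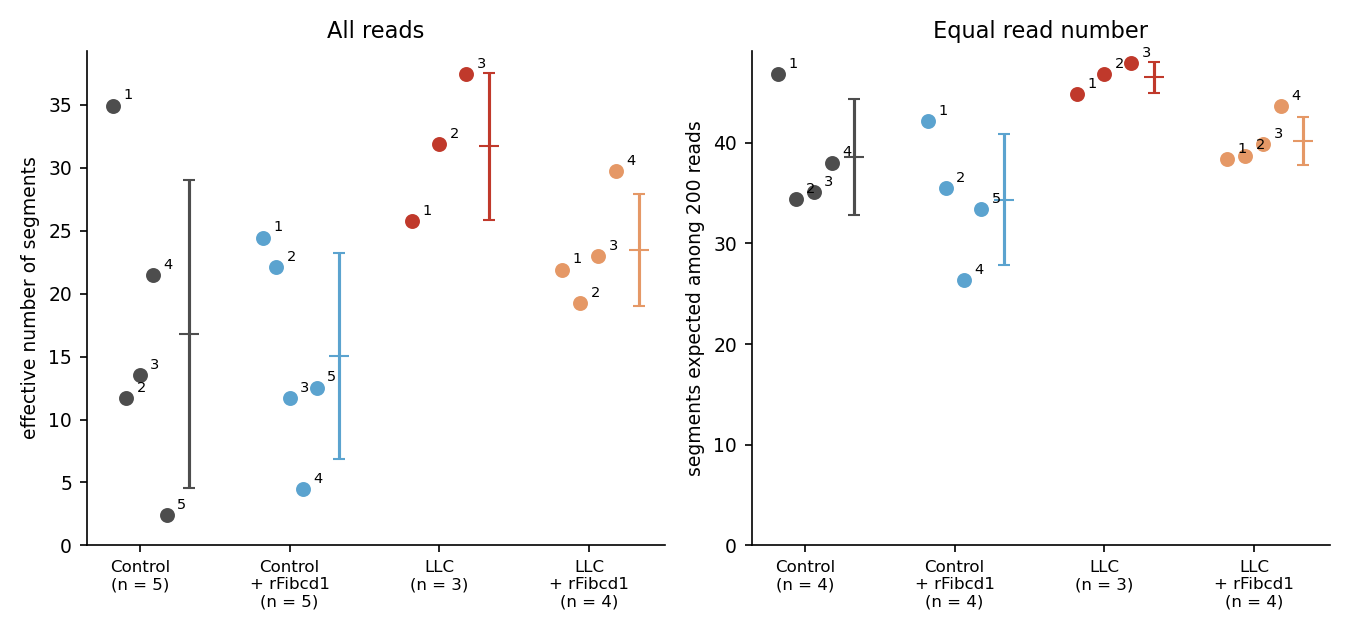
Diversity of the Ighv pool in each mouse by group, as the effective number of segments (left) and as the segments expected among 200 reads (right, without the 2 mice with fewer reads). Points are mice numbered by replicate, and bars are the group mean ± SD. LLC mice lie at 25.8 to 37.5 on the left and 44.8 to 47.9 on the right, with Control replicate 1 beside them.

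Pools of the same group were not visibly more alike than pools of different groups. Between mice with at least 200 Ighv reads, the part of the composition that a pair had in common (the sum over segments of the smaller share) had a median of 34.9% for 21 pairs within a group and 36.7% for 84 pairs across groups. The 3 LLC pairs had 46.8% to 51.6% in common, the 6 LLC + rFibcd1 pairs 28.4% to 52.9%, the 6 Control pairs 30.01% to 51.6% and the 6 Control + rFibcd1 pairs 22.0% to 38.9%. The highest value, 61.5%, was found for a pair from different groups. Pairs share mice and are given as a description.

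The next comparison asked which segments differed with the tumor. Segments of several families rose in LLC against Control, and none fell. Of 84 members, 43 (51.2%) were higher in LLC at an adjusted p under 0.05 (limma over 13305 genes), beside 29.7% of all genes tested, and 0 were lower, beside 6.02%. Without the adjustment, 58 members reached p under 0.05 in the higher direction, beside 40.1% of genes, and 0 in the lower, beside 8.18%. In 38 members (45.2%), each LLC mouse was above each Control mouse, beside 33.6% of all genes. The median log2 change was 2.43, with values from 0.42 to 4.93 and 84 of 84 above 0, where the median over all genes was 0.16. Since these members were chosen by level, and 10 of them passed through the LLC mice, their counts are descriptions. Among the 74 members that passed without the LLC mice, 38 were called, and 5 of the other 10.

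The Ighv1 family had 26 of 44 members called, Ighv9 3 of 4, Ighv10 2 of 2, Ighv2 3 of 6, Ighv5 3 of 8, Ighv3 2 of 5 and Ighv14 0 of 4, beside 29.7% of all genes. Of these, 2 calls in Ighv9, 2 in Ighv3 and 1 in Ighv1 were of members that met the level rule only with the LLC mice. Of the 12 leading segments, 4 (33.3%) were called, a share near that of all genes, namely Ighv1-81, Ighv1-80, Ighv8-12 and Ighv1-55. Among them, Ighv1-80 stood at 0 to 22.1 TPM in Control and at 99.4, 138 and 247 TPM in LLC, a log2 change of 4.27 ± 1.496 (adjusted p = 0.0384). Ighv1-55 went from 0 to 34.0 TPM in Control to 93.3, 104 and 261 TPM in LLC, a change of 3.66 ± 1.38 (adjusted p = 0.0499). In both, LLC and Control mice did not overlap. When a mouse was left out, Ighv1-80 passed in 11 and Ighv1-55 in 4 of 17 fits, and neither passed without Control replicate 3 or 5 or without any one of the LLC mice (adjusted p up to 0.1375 and 0.176). Ighv8-12 passed in 11, and was lost without Control replicate 1, 3 or 5 or any one of the LLC mice (up to 0.1387), and Ighv1-81 was lost without LLC replicate 3 (0.0697). The members called had a median SE of 0.825 and those not called 0.885, against 0.108 over all genes.

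The 5 largest changes among the calls were all in Ighv1 members. Ighv1-82, a segment at the D-distal end of the locus, was at 5.88, 3.49, 2.92, 1.66 and 0 TPM in Control and at 106, 39.6 and 208 TPM in LLC, and rose by 4.93 ± 1.18 (log2, SE; adjusted p = 0.0120). Ighv1-18 was at 21.8, 4.86, 0.476, 16.6 and 0 TPM in Control and at 430.2, 168 and 48.9 TPM in LLC, and rose by 4.91 ± 1.55 (adjusted p = 0.0259). Ighv1-76 was at 0.432, 1.62, 0.114, 2.94 and 0 TPM in Control and at 16.8, 106 and 52.4 TPM in LLC, and rose by 4.74 ± 0.93 (adjusted p = 0.00926). No LLC mouse overlapped a Control mouse in any of these 3 segments. Ighv1-4 was at 0 to 1.36 TPM in Control and at 7.54, 209 and 23.2 TPM in LLC (4.62 ± 0.99, adjusted p = 0.0103), and Ighv1-9 was at 0 to 58.1 TPM in Control and at 127, 278 and 92.2 TPM in LLC (4.43 ± 1.29, adjusted p = 0.0194). Their groups did not overlap either.

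Among single mice left out, LLC replicate 3 lowered the count of calls most. Calls numbered 23 without Control replicate 5 and 25 without LLC replicate 2. Shares over all genes are not given for these 2 fits, so whether their fall was particular to the segments cannot be told. Without LLC replicate 3, 3 members were called, Ighv1-5, Ighv1-54 and Ighv1-85, beside 0.113% of all genes, while 45 were higher at an unadjusted p under 0.05, beside 27.9%. None of the 5 segments above then passed (adjusted p from 0.0654 to 0.0734). The call of Ighv1-18 was lost also without Control replicate 3 or 5 or LLC replicate 1 or 2 (up to 0.105), and with a pseudocount of 0.1 TPM (0.0594), and that of Ighv1-9 without LLC replicate 1 or 2 (up to 0.0535). Dunn comparisons of rank means, adjusted over all genes, called 0 members, beside 0% of all genes. They had 36 members higher at an unadjusted p under 0.05, beside 30.2%. No Kruskal-Wallis test was run before these comparisons. The model with the replicate number as a block called 0, beside 0.0225%, with 41 higher at an unadjusted p, beside 30.7%. In direction, at least 82 of 84 members were higher in LLC in each of 24 settings of the linear model. The members moved with a common sum (median rho 0.82) and the settings share mice, so these directions are not independent. The share of all genes that were higher is not given.

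**Figure D4:**
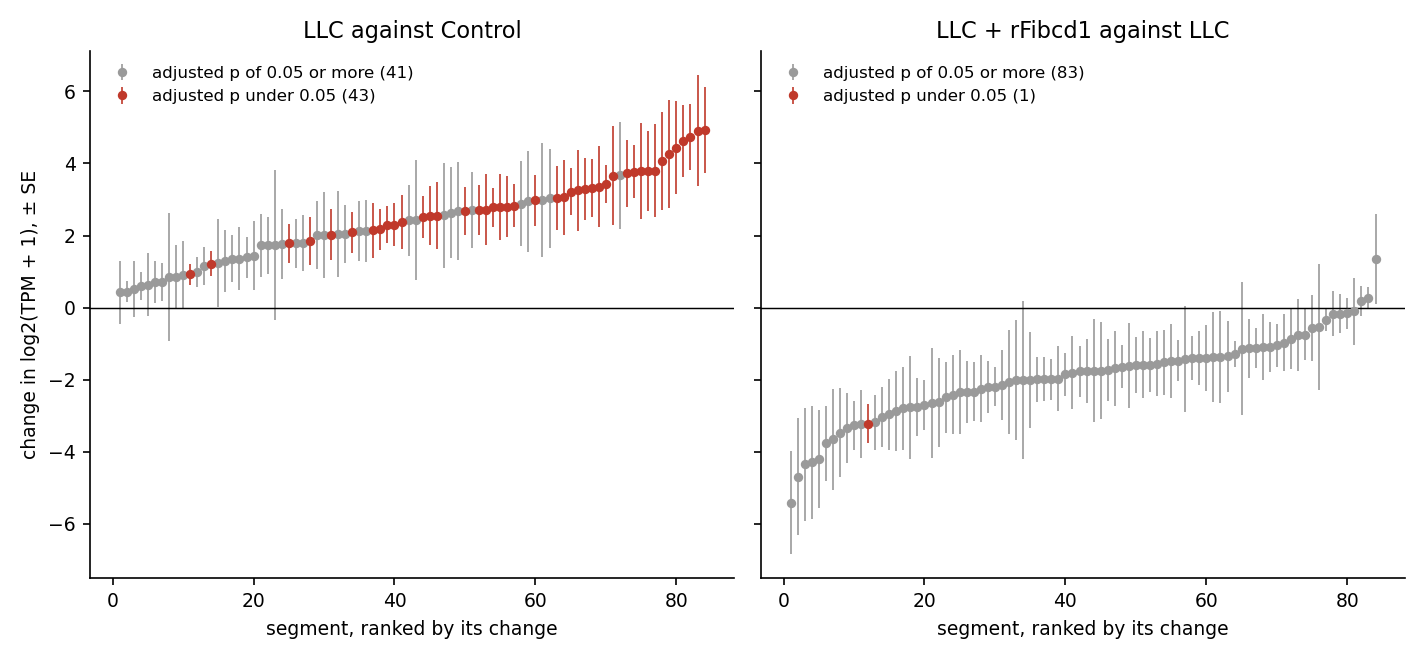
Change of each of 84 Ighv segments in log2(TPM + 1) with its SE, ranked by size, for LLC against Control (left) and LLC + rFibcd1 against LLC (right). Red marks an adjusted p under 0.05 (limma). On the left 84 segments lie above 0 and 43 are called, and on the right 81 lie below 0 and 1 is called. Both panels use the same LLC mice.

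The comparison of LLC + rFibcd1 with LLC addressed whether rFibcd1 changed the segments in tumor-bearing mice. It shares the LLC mice with the comparison above, so a mouse that is high in LLC raises one and lowers the other. Of 84 members, 1 (1.19%) was lower at an adjusted p under 0.05, beside 0.0526% of all genes, and 0 were higher, beside 0.0601%. Without the adjustment, 38 (45.2%) were lower, beside 17.3%, and 0 higher, beside 5.46%. In 18 members (21.4%), each LLC + rFibcd1 mouse was below each LLC mouse, beside 9.3% of all genes. The median log2 change was -1.77, against -0.11 over all genes, and 81 of 84 were below 0. The 3 above 0 were Ighv1-42, Ighv1-11 and Ighv1-58.

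The member called was Ighv1-54. It was at 20.4, 31.1 and 4.82 TPM in LLC and at 0, 2.44, 1.44 and 0 TPM in LLC + rFibcd1, which did not overlap, and it fell by 3.22 ± 0.55 (log2, SE; limma, adjusted p = 0.0383). In Control it was at 0.633, 2.21, 0.222, 0.106 and 0 TPM, and LLC exceeded Control by 3.42 ± 0.53 (adjusted p = 0.00723, the lowest of any member). It shared no stretch of 100 bases with another Ighv transcript, and its share of the pool was at most 0.874%. Its call in LLC + rFibcd1 against LLC was lost without Control replicate 1, Control + rFibcd1 replicates 2, 4 or 5, LLC replicates 1 or 2, or LLC + rFibcd1 replicates 1 or 4, with an adjusted p between 0.0206 and 0.173 over 17 such fits. Other scalings, the lower pseudocount and Dunn comparisons ended it too.

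The spread among LLC + rFibcd1 mice was wide. Replicate 3 had a sum within the range of the LLC mice (2950 TPM). It had Ighv1-53 at 525.2 TPM, below the highest LLC mouse, and Ighv1-55 at 440 TPM, Ighv1-42 at 256 TPM and Ighv1-72 at 232 TPM, each above all 3 LLC mice. Replicates 1 and 4, with sums of 182.5 and 110 TPM, were below 4 of the 5 Control mice and above the fifth. Ighv8-12, the segment with the most negative change, was at 438, 202 and 27.9 TPM in LLC and at 0.871, 1.56, 5.31 and 2.52 TPM in LLC + rFibcd1. The groups did not overlap, but its change of -5.42 ± 1.42 did not pass (adjusted p = 0.134). Ighv1-82 was at 0.303, 25.6, 63.6 and 1.52 TPM in LLC + rFibcd1, a change of -3.48 ± 1.24 (adjusted p = 0.192).

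**Figure D5:**
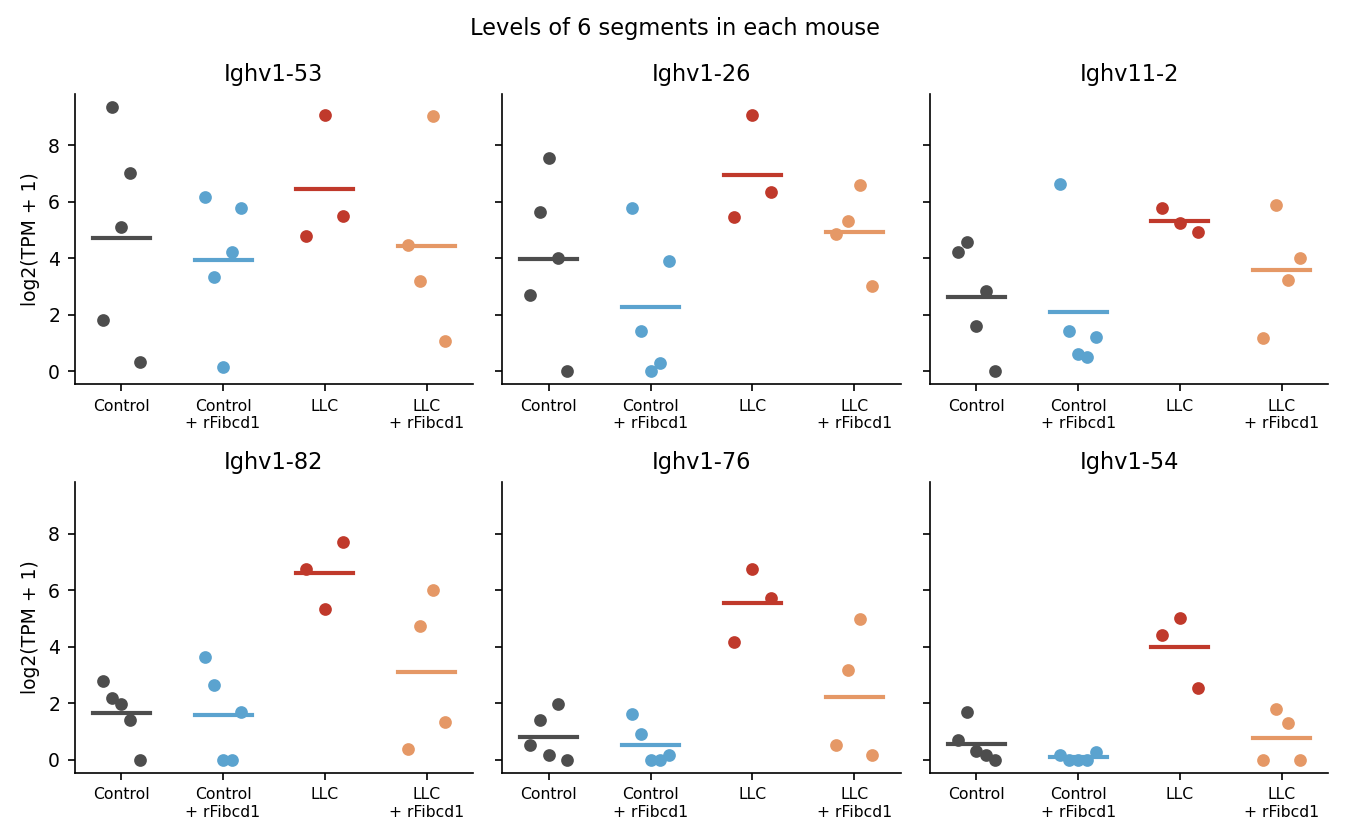
Levels of 6 Ighv segments in each mouse as log2(TPM + 1), by group. Points are mice and lines are group means. Ighv1-53 spreads from 0.114 to 659.4 TPM with overlap between the groups, while Ighv1-82, Ighv1-76 and Ighv1-54 are higher in each of 3 LLC mice than in each of 5 Control mice.

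In tumor-free mice, rFibcd1 left no segment past the test. In Control + rFibcd1 against Control, 0 of 84 members passed an adjusted p of 0.05 with limma, beside 0% of genes. Dunn comparisons also called 0. At an unadjusted p under 0.05, 0 members were higher, beside 0.316% of genes, and 0 lower, beside 4.07%. The median log2 change was -0.31 with a median SE of 0.76. In LLC + rFibcd1 against Control, 0 members passed, beside 2.07% of genes higher and 1.01% lower, and Dunn comparisons called 0. At an unadjusted p under 0.05 (limma), 6 members were higher, beside 13.9%, and 0 lower, beside 6.01%, and the median change was 0.55. The interaction, which asks whether rFibcd1 acted differently in tumor-bearing and in tumor-free mice, passed for 0 members with limma, beside 0% of all genes, with a median of -1.41 and a median SE of 1.19. At an unadjusted p under 0.05, 15 members were lower, beside 2.6%, and 0 higher, beside 5.98%.

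The highest level of a member was found in an LLC mouse for 56 of 84 segments, 28 of them in LLC replicate 2, in an LLC + rFibcd1 mouse for 16, in a Control mouse for 7 and in a Control + rFibcd1 mouse for 5. As shares of the pool, the highest value fell in an LLC mouse for 16 of 84 members. LLC mice were 3 of the 17. The count of highest levels was not made over all genes. Since 10 members met the level rule only with the LLC mice, the count of 56 is a description.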

How the data were processed

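Paired reads from 17 diaphragms were, per the study's methods, trimmed and filtered, aligned to GRCm38 and counted per gene in CLC Genomics Workbench, and the authors deposited TPM, in which reads are divided by gene length and each sample is scaled to the same total. The annotation release and the handling of reads that fit several segments, or carry somatic mutations, are not given in the sources used here. Groups and replicate numbers came from the sample titles. Each mouse is 1 sample, and no batch is named. The 13305 genes that met the level rule of the members were tested on log2(TPM + 1) with limma 3.58.1 (R 4.3.3), in a single model of the 4 groups leaving 13 residual degrees of freedom, with trended empirical Bayes moderation, two-sided tests and Benjamini-Hochberg adjustment over all genes. The pseudocount of 1 TPM understates changes of low segments. limma replaced the authors' Kruskal-Wallis and Dunn tests because 3 to 5 mice a group are few for rank tests. Dunn comparisons alone were kept as an alternative. Whole reads were recovered from TPM steps with GENCODE vM21 lengths and used for intervals and read draws only. The test was checked on simulated data. Named segments were the 10 with the highest mean share, the 5 largest changes among calls of a comparison, the leading segment of each mouse, the neighbors of the threshold and segments of known use. Further segments named after their values were seen are Ighv1-71, Ighv6-3, Ighv1-5, Ighv1-85, Ighv1-11, Ighv1-58, Ighv1-52, Ighv1-61, Ighv2-2, Ighv5-12, Ighv1-64, Ighv1-62-3, Ighv4-1 and Ighv1-63. The members and lists were chosen with earlier results of these data known.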

Additional observations from a re-analysis of the deposited data

Results flagged for a closer look

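Single mice stood far from the rest of their group in 7 of 69 sets of values examined (23 measures in 3 groups). The rule flags about 1 in 20 by chance only for independent sets that were not selected. These sets share mice, and many segments were picked for high shares or large changes, so the count is a description. In Control, the log2 summed Ighv TPM of replicate 5 was 1.31, and the gap to the next mouse was 0.8 of the group's range. In Control + rFibcd1, replicate 1 stood apart on the log2(TPM + 1) scale in Ighv1-81 (1.34), Ighv11-2 (6.63), Ighv8-12 (5.85) and Ighv1-4 (3.49), and replicate 5 in Ighv1-22 (7.95). In LLC + rFibcd1, replicate 3 stood apart in Ighv1-72 (7.87). Groups of 3 were not examined.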

How the results depend on the processing

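Of 84 members, 43 were called in LLC against Control. The count was 26 with a pseudocount of 0.1 TPM (beside 27.4% of genes), 31 with no filter on low values (18.3%), 36 with median-ratio size factors (14.4%), 33 without mitochondrially encoded genes (18.7%) and 48 with only the groups compared (33.4%). It was 0 with Dunn comparisons and 0 with the replicate number as a replicate block, with 36 and 41 members at an unadjusted p under 0.05. Leaving out 1 mouse gave 3 to 49 calls, with 3 without LLC replicate 3 (beside 0.113% of genes), 23 without Control replicate 5 and 25 without LLC replicate 2. Shares over all genes are not given for the other fits that left out a mouse. Deviations of same-numbered mice from their group means had correlations of both signs, from -0.329 to 0.485. Whether the numbers mark anything that these mice shared was not tested. The replicate block turned the change of Ighv7-1 in LLC against Control to -0.57. The median log2 change over all genes was 0.16 as deposited, -0.01 with median-ratio size factors and 0.07 without mitochondrially encoded genes, and the median over the members was 2.43, 2.28 and 2.75.

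In LLC + rFibcd1 against LLC, 1 member was called, and 0 with a pseudocount of 0.1 TPM, median-ratio size factors, no mitochondrially encoded genes, the replicate block, only the groups compared or Dunn comparisons. Leaving out 1 mouse gave 0 to 4, with 3 without Control + rFibcd1 replicate 1 and 4 without LLC + rFibcd1 replicate 3. Shares over all genes are not given for these fits. In LLC + rFibcd1 against Control, leaving out 1 mouse gave 0 to 1, the call being Ighv4-1 without Control replicate 2 and Ighv1-63 without LLC + rFibcd1 replicate 4. Control + rFibcd1 against Control and the interaction had 0 calls in each setting run. Differences in the summed level and in the effective number stayed within 1 pooled SD of their values in each alternative. These used other rows, scalings, indices or reads, or left out a mouse. The SDs were wide, at 1.74 to 3.54 for the log2 sum and 5.055 to 10.53 for the effective number. Even a change of sign can lie within them. For Control + rFibcd1 against Control, the effective number differed by -1.73, which turned to 2.81 without Control replicate 1. Some differences of the sum changed sign too, as given above. Causes were not tested. Mice with 21 to 237 Ighv reads limit shares and diversity in the tumor-free groups.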
